A study of Mus musculus with 2 samples.

Results

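Male germ cells of the fetal mouse testis that carried few transcripts of both the histone genes used in S phase and the genes used in mitosis were examined at the E13.5 embryonic stage. Single-cell RNA-seq had been run on cells sorted for an Oct4-GFP reporter from male CD1 embryos. There was 1 10x v2 library at E13.5 and 1 at E12.5, and the labels name no genetic change or treatment beyond the reporter that both stages share. Each stage is 1 library and nothing maps cells to embryos, so differences between sets of cells have no replicate check, no p-value is given, and each interval is an exact 95% interval that covers counting error only.

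The cells were chosen from their own counts in 3 steps. A barcode was taken as a germ cell when it had 500 or more genes, 5000 or more UMIs (unique transcript tags), under 10% of UMIs from mitochondrial genes and at least 0.2% of UMIs from Dazl, Pou5f1, Dppa3 and Dppa5a together. This left 2549 of 2992 barcodes at E13.5. Members lay under the median of these germ cells, per 10000 UMIs, in 2 sums: 5 histone genes (Hist1h1b, Hist1h1a, Hist1h1e, Hist1h2ap and Hist1h2ae) and 6 mitotic genes (Plk1, Aurka, Ccnb1, Cdc20, Cenpf and Tpx2). The medians were 0.717 and 11.2. There were 682 members, 26.8% of the germ cells (25 to 28.5), called low-cycle germ cells here. The other 1867 germ cells comprise 592 over the histone cut alone, 592 over the mitosis cut alone and 683 over both. The last values inside and outside the cuts were 0.71677 and 0.71685 for the histones, and 11.16348 and 11.17718 for the mitotic genes.

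Male germ cells multiply after they settle in the gonad and then stop dividing before birth, staying in a long arrest in G0 or G1 during which the male germline programme starts. Entry into S phase depends on E2F transcription factors, which the retinoblastoma family (Rb1) holds back while cyclin-dependent kinases are inactive. Replication licensing, the loading of the Mcm helicase onto DNA by Cdt1 and Cdc6, is one E2F-driven step, and genes of mitosis are held back outside G2 by a repressor complex bound at the CHR element of their promoters. The low-cycle cells were given the working name of germ cells leaving the cell cycle, with Uchl1, Ddit4 and Sesn3 as markers.

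That name was set against the data first. All 3 markers were higher in the low-cycle cells and cycle transcripts outside the rule were lower. The rule picked cells by cycle genes, and members and lists were chosen with earlier results of these data known. Neither result is therefore an independent check of the name. A snapshot of low transcript levels does not separate a cell that has left the cycle from one early in G1, and the low-cycle cells were not uniform: the highest quartile of them by DNA replication transcripts had levels of Ccne1, which encodes the G1/S cyclin E1, of 25.1 CPM (counts per 1000000 summed UMIs; 20.2 to 30.8), against 4.76 (2.77 to 7.62) in the lowest. The histone cut rested on very few molecules. Of the members, 354 (51.9%) had no UMI of the 5 histone genes, 289 had 1 and 39 had 2 or more, while 297 of the 592 cells over the histone cut alone still had under 5 UMIs per 10000.

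**Figure D1:**
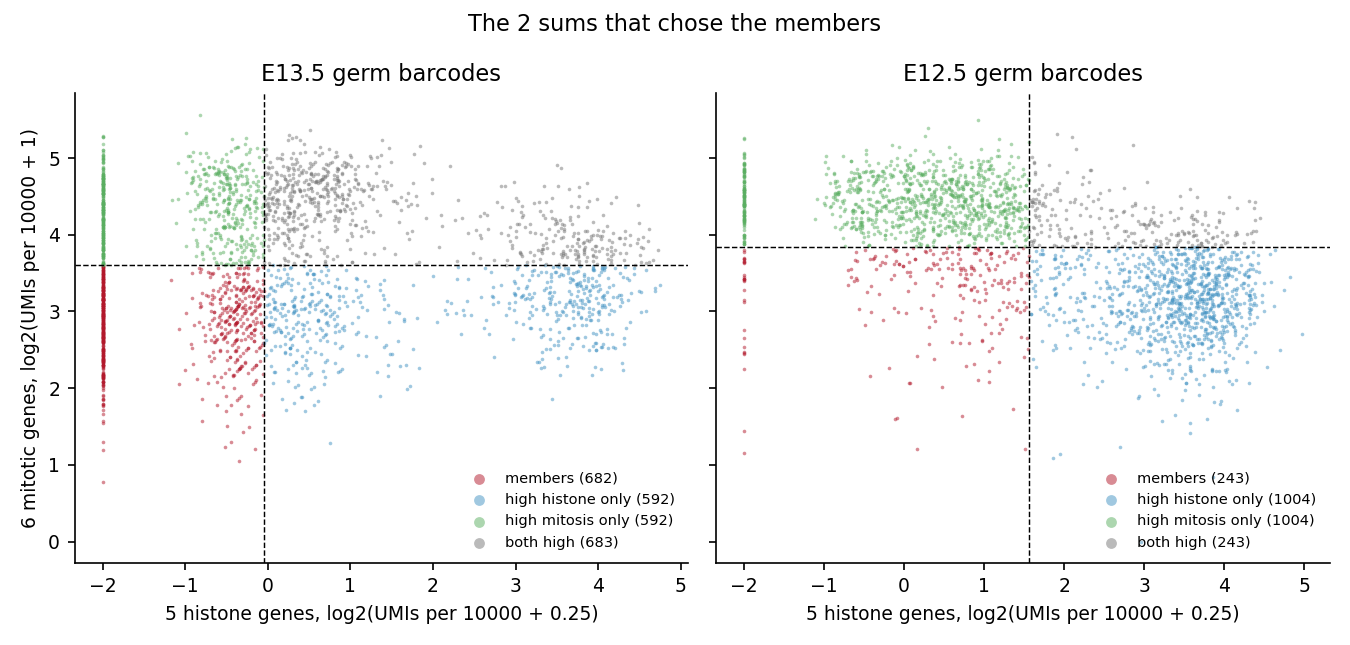
Each point is a germ barcode, with the sum of the 5 histone genes (x) and of the 6 mitotic genes (y) as log2 of UMIs per 10000 plus an offset, for E13.5 (left panel) and E12.5 (right panel); dashed lines mark each library's own medians. The 682 members at E13.5 fill the lower left, with a column of 354 points at no histone UMI, and the same rule holds 243 barcodes at E12.5.

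Depth differed modestly between the sets, and of the marker lists for other cell types the erythroid one differed most. Low-cycle cells had a median of 19526 UMIs and 4134 genes, against 22730 UMIs and 4450 genes in the other germ cells, and 14220386 against 44460032 UMIs in sum. The median mitochondrial share was 5.05% in low-cycle cells and 4.57% in the others. With cells under 5% mitochondrial UMIs only, 393 of them members, the median log2 ratio of members over the others was -0.52 for licensing, -0.59 for DNA synthesis and -0.92 for G2 and mitosis; with depth held to the interquartile range of the members, 340 of them, these medians were -0.69, -0.74 and -0.79. The 4 germ markers of the gate took a median of 0.683% of UMIs in low-cycle cells and 0.686% in the others, and the 8 germ cell markers on the list for naming, which includes these 4, summed to 7434 CPM in low-cycle cells and 7392 CPM in the others. Summed Sertoli markers came to 13.7 CPM in low-cycle cells and 14.7 CPM in the others, and the fetal Leydig, interstitial, macrophage and surface epithelium lists to between 0.563 and 7.52 CPM in low-cycle cells and between 0.630 and 9.94 CPM in the others. Endothelial markers summed to 25.5 CPM in low-cycle cells and 31.3 CPM in the others, and erythroid markers to 23.0 CPM in low-cycle cells and 294 CPM in the others. At 0 in the low-cycle cells were 0 of 11 Sertoli, 3 of 5 Leydig, 2 of 8 interstitial, 0 of 5 endothelial, 1 of 3 macrophage, 2 of 8 erythroid and 0 of 5 surface epithelium genes listed in the file; their part in the results was not tested. No low-cycle cell had 0.5% or more of its UMIs from any of these lists. Among the other germ cells 1 did, with 2989 erythroid UMIs per 10000. The 95th percentile of erythroid UMIs per 10000 was 0.900 in low-cycle cells and 0.878 in the others, so the erythroid difference did not extend to most cells. Of the barcode sequences, 24 occur in both libraries, of which 4 were low-cycle cells at E13.5 and none were members at E12.5.

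Genes with at least 10 CPM over all germ cells were compared, 6824 besides the 11 of the rule. A gene or list member is counted as higher or lower below when its log2 ratio was at least 0.32 from 0. In low-cycle cells 675 genes (9.89%) were higher by this measure than in the other germ cells and 979 (14.3%) lower. At 1.5-fold these were 135 (1.98%) and 348 (5.10%), and the median log2 ratio of all tested genes was -0.02. Of the genes counted, 40.8% were the higher ones. With abundant transcripts left out of the denominator the counts were 1027 higher and 739 lower (58.2% higher), with TMM factors 569 and 1115 (33.8%), and with median-of-ratios factors 520 and 1188 (30.4%), so which direction holds more genes depends on the scaling. These ratios come from the cells that the rule chose, and each list below describes them without a test. Counts of E13.5 list genes below are to be read beside 9.89% of all tested genes higher and 14.3% lower.

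Promoters of 5 cycle genes are shown because 2 short motifs were unequally frequent in the replication and the mitotic lists; the genes were chosen after their values were seen. RefSeq windows on GRCm38.p6, 250 bases before to 50 after each start, were searched on both strands for an E2F-type motif, TTTNNCGC with each N being C or G, and for the CHR motif, TTTGAA. E2F-type matches on opposite strands can overlap, and where motifs overlap in a window both are counted. The E2F-type motif was in 6 of 12 licensing genes with a window (50%), in 8 of 28 DNA synthesis genes (28.6%) and in 3 of 48 G2 and mitosis genes (6.25%), beside 5.94% of 5338 tested genes and 2.60% of all 27025 genes in the table. The CHR motif was in 4 of 12 licensing genes (33.3%), in 2 of 28 DNA synthesis genes (7.14%) and in 32 of 48 G2 and mitosis genes (66.7%), beside 14.1% of tested genes and 20.2% of all genes. Neither motif was in the 9 male germline genes with a window. Among all tested genes, the E2F-type motif was in 100 of 760 (13.2%) of those lower in low-cycle cells and in 13 of 536 (2.43%) of those higher, and the CHR motif in 19.7% and 14.0%. A match is a run of letters in a window and not a site shown to be bound.

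The stretches printed are the 200 bases before the start, on the strand of the gene, with matches of either motif in capitals. The first pair, chr8:75109309-75109508 (plus strand) and chr11:98907951-98908150 (plus strand), are from licensing genes and carry the E2F-type motif; in Mcm5 a match on each strand overlaps the other.
Mcm5: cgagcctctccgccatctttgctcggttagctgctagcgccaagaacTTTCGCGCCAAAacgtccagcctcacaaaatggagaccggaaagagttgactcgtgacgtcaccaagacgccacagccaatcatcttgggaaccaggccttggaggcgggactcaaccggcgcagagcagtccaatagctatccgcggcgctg
Cdc6: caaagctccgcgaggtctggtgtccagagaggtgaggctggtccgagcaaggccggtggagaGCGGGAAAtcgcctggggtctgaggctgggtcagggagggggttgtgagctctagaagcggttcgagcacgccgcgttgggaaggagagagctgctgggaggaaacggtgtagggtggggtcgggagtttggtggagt

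The next 3 are from genes of G2 and mitosis, at chr10:69352913-69353112, chr11:99024190-99024389 and chr7:135716380-135716579, all on the minus strand. Cdk1 holds 1 E2F-type and 2 CHR matches, and Top2a and Mki67 hold 2 CHR matches each.
Cdk1: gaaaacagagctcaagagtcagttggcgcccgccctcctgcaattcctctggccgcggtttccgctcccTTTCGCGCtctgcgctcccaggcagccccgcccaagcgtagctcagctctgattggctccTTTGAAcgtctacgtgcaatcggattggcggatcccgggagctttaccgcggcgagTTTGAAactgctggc
Top2a: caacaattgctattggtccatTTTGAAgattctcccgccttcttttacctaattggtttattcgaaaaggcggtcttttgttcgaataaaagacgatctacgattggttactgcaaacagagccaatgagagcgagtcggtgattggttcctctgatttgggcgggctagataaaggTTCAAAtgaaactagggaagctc
Mki67: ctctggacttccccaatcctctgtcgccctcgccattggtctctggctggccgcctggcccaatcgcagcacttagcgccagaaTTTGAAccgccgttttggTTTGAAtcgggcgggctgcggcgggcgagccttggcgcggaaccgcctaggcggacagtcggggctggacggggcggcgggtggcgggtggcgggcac

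Replication licensing genes were low in the low-cycle cells almost throughout. Of 16 licensing genes tested, 15 were lower and none higher, with a median log2 ratio of -0.67, beside 14.3% of all tested genes lower. Gmnn, which encodes geminin, the inhibitor of Cdt1 made from S phase to mitosis, stood at 70.9 CPM in low-cycle cells and 245 CPM in the other germ cells, 3.46-fold lower (3.24 to 3.69). Gins1, a subunit of the replicative helicase complex, had 16.6 CPM in low-cycle cells against 37.0 CPM in the others, and Cdt1, which loads the Mcm ring, 24.9 CPM in low-cycle cells against 43.9 CPM in the others. The Mcm ring subunits differed less: Mcm5 had 67.4 CPM in low-cycle cells and 113 CPM in the others, 1.67-fold lower (1.56 to 1.79), and Mcm7 103 CPM in low-cycle cells and 143 CPM in the others. Cdc6, the loader whose promoter is shown, was at 3.66 CPM in low-cycle cells and 8.50 CPM in the others. It lay under 10 CPM over all germ cells, so it is neither among the licensing genes tested nor in the motif counts of that list. The gene of the list nearest to no difference was Gins4, at 78.5 CPM in low-cycle cells and 90.1 CPM in the others.

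Genes of DNA synthesis were lower in the same way. Of 37 tested, 33 were lower and none higher, with a median log2 ratio of -0.74. Tk1 and Tyms, both makers of thymidine nucleotides, had 5.56 CPM in low-cycle cells against 24.7 CPM in the others, and 49.5 CPM in low-cycle cells against 113 CPM in the others. Rrm2, the ribonucleotide reductase subunit that limits the supply of DNA precursors, had 10.2 CPM in low-cycle cells against 34.2 CPM in the others, 3.36-fold lower (2.83 to 4.01). The sliding clamp Pcna had 28.6 CPM in low-cycle cells against 60.9 CPM in the others, and Slbp, the protein that binds the stem-loop of histone mRNA, 128 CPM in low-cycle cells against 289 CPM in the others. The remaining 4 had log2 ratios within 0.32 of 0, among them Rfc1, a clamp loader subunit, at 192 CPM in low-cycle cells and 209 CPM in the others.

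Transcripts of G2 and mitosis outside the rule stood lowest of all lists but the rule's own and the erythroid and other histone lists. Of 57 tested, 53 were lower and none higher, with a median log2 ratio of -0.96. Mki67, the proliferation antigen, had 26.0 CPM in low-cycle cells and 121 CPM in the others, 4.66-fold lower (4.20 to 5.19), and Top2a, the topoisomerase that untangles sister chromatids, 109 CPM in low-cycle cells and 500.3 CPM in the others, 4.58-fold lower (4.35 to 4.83). Kif23, a motor of cell division, had 6.54 CPM in low-cycle cells and 39.5 CPM in the others. Fbxo5, an inhibitor of the anaphase-promoting complex that is on no list, had 11.7 CPM in low-cycle cells and 67.9 CPM in the others, 5.78-fold lower (4.95 to 6.80). The other genes with the lowest ratios at 50 CPM or more were the testis tubulin Tuba3a (33.5 CPM in low-cycle cells and 193 CPM in the others), the spindle protein Nusap1 (19.8 CPM in low-cycle cells and 94.1 CPM in the others), Incenp of the chromosomal passenger complex (42.3 CPM in low-cycle cells and 151 CPM in the others), the nuclear importer Kpna2 (23.3 CPM in low-cycle cells and 75.7 CPM in the others), the spindle protein Hmmr (35.3 CPM in low-cycle cells and 109 CPM in the others), cyclin A2 (Ccna2, 47.1 CPM in low-cycle cells and 135 CPM in the others), the mitotic kinase Cdk1 (41.2 CPM in low-cycle cells and 114 CPM in the others) and Tubb4b (238 CPM in low-cycle cells and 659 CPM in the others). Of 7 tubulins tested, 5 were lower, with a median log2 ratio of -0.69. Cks1b and G2e3 were the exceptions nearest to no difference, at 272 CPM in low-cycle cells against 281 CPM in the others and 74.5 CPM in low-cycle cells against 76.4 CPM in the others.

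Which cells serve as comparison changes which cycle genes stand out. Against cells over the histone cut alone, 544 genes (7.97%) were higher in low-cycle cells and 838 (12.3%) lower; against cells over the mitosis cut alone, 780 (11.4%) and 1031 (15.1%); and against cells over both cuts, 905 (13.3%) and 1212 (17.8%). The median log2 ratio of the licensing list was -0.89, -0.36 and -0.60 in these 3 comparisons, and that of G2 and mitosis -0.37, -1.07 and -1.22. By list medians, low-cycle cells were lower than each set in both programmes, with 8 of 16 licensing genes still lower against the mitosis-only cells and 32 of 57 G2 and mitosis genes lower against the histone-only cells. Gmnn, for one, had 70.9 CPM in low-cycle cells against 279.5 CPM in histone-only, 188 CPM in mitosis-only and 264 CPM in both-high cells.

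**Figure D2:**
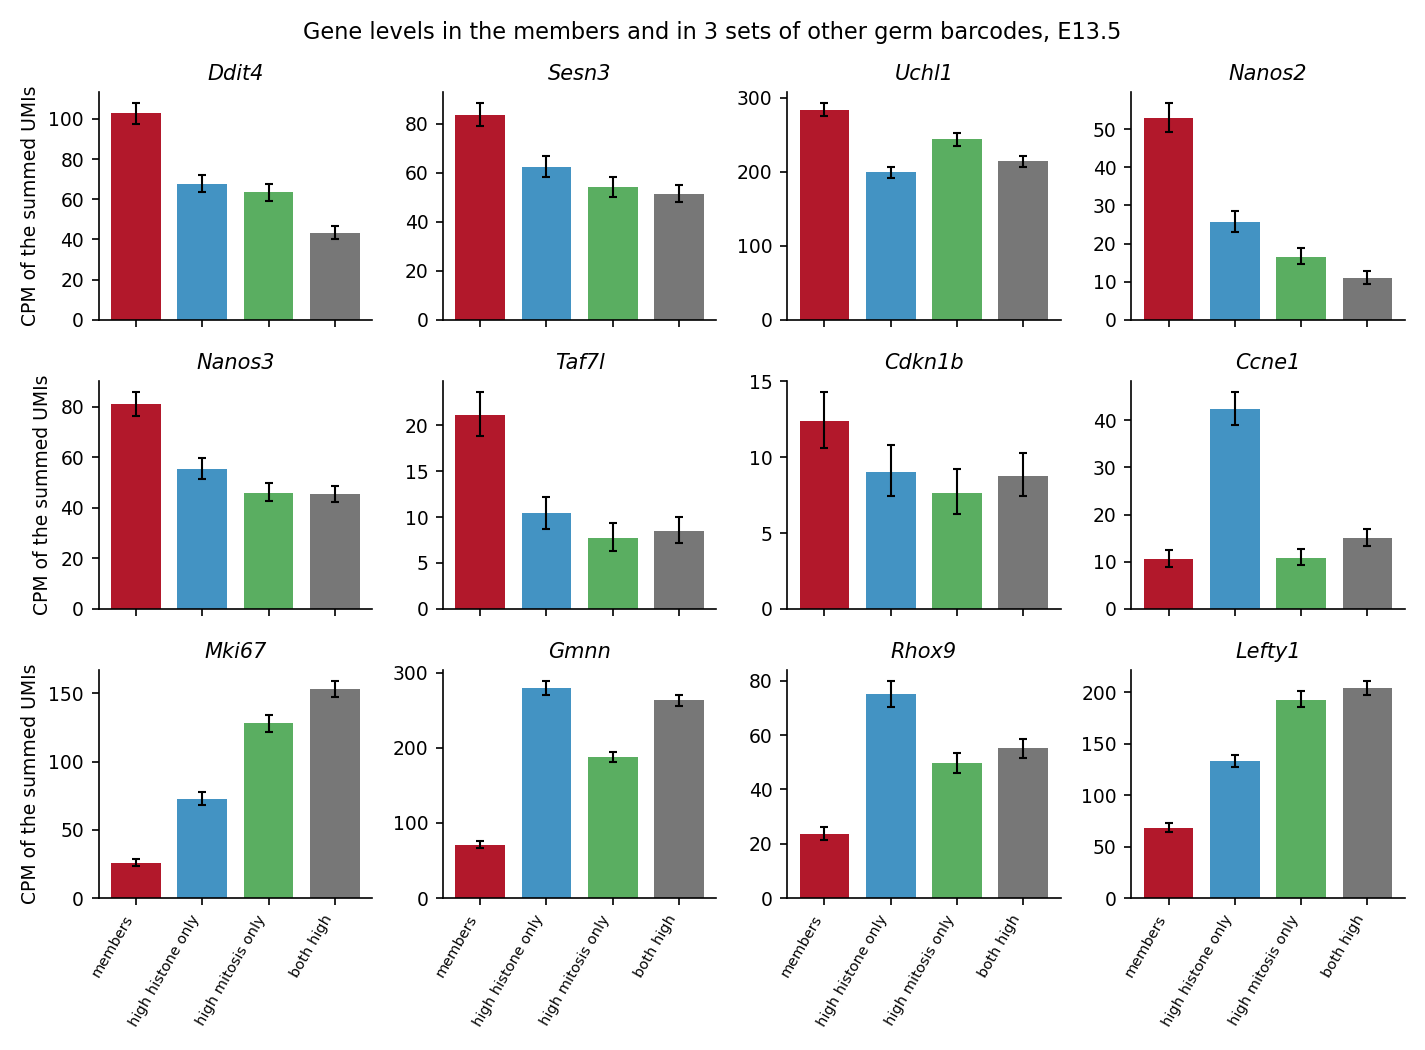
Bars give CPM of the summed UMIs in low-cycle cells (members, left bar) and in germ cells over the histone cut alone, the mitosis cut alone or both at E13.5, with exact 95% Poisson intervals for counting error. Ddit4, Sesn3, Uchl1, Nanos2, Nanos3, Taf7l and Cdkn1b have their highest bar in the members, and Mki67, Gmnn, Rhox9 and Lefty1 their lowest.

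Of 11 cyclin, kinase and E2F genes of G1 tested, 7 were lower and none higher, with a median log2 ratio of -0.39, beside 14.3% of all tested genes lower. The list differed by comparison set. Against histone-only cells 8 were lower and 1 higher (median -0.46), and against both-high cells 6 were lower and none higher (-0.50). Against mitosis-only cells 3 were lower and none higher (-0.08). Cdc25a, the phosphatase that activates cyclin E and A kinases, had 28.6 CPM in low-cycle cells and 68.8 CPM in the others, 2.41-fold lower (2.17 to 2.68). Ccne1 had 10.5 CPM in low-cycle cells and 21.9 CPM in the others, 2.08-fold lower (1.75 to 2.49), but the level in the mitosis-only cells was 10.9 CPM and that in the histone-only cells 42.3 CPM, so the low-cycle level lay close to that of the mitosis-only cells. E2f1 itself had 46.2 CPM in low-cycle cells and 58.0 CPM in the others, 1.26-fold lower (1.15 to 1.37). D-type cyclins and their kinase were within 0.32 of 0 on the log2 scale: Ccnd3 had 52.4 CPM in low-cycle cells and 61.7 CPM in the others, Ccnd1 11.7 CPM in low-cycle cells and 9.81 CPM in the others with an interval that includes no difference (0.996 to 1.43), and Cdk4 457 CPM in low-cycle cells and 439 CPM in the others.

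Inhibitors of cyclin-dependent kinases were mixed. Of 9 genes tested on the list of inhibitors, pocket proteins and antiproliferative factors, 2 were higher, 3 lower and 4 between. The lower ones were Cdkn3 (log2 ratio -1.14), Btg3 (-0.48) and Cdkn1a (-0.43). Over all tested genes 9.89% were higher and 14.3% lower. Cdkn2d, which encodes the INK4 inhibitor p19, had 33.0 CPM in low-cycle cells and 23.0 CPM in the others, 1.43-fold higher (1.28 to 1.6), and Btg2, an antiproliferative factor, 14.6 CPM in low-cycle cells and 9.78 CPM in the others. Cdkn1b, which encodes p27, a protein known to mark arrested male germ cells, had 12.4 CPM in low-cycle cells and 8.48 CPM in the others, 1.46-fold higher (1.21 to 1.75), but lay under 10 CPM over all germ cells and so is not in the list's count; at E12.5 it had 1.79 CPM in members and 2.72 CPM in the others. Cdkn1c, which encodes p57, had 69.5 CPM in low-cycle cells and 82.9 CPM in the others, 1.19-fold lower (1.11 to 1.28), with 60.7 CPM in histone-only cells and 93.0 CPM in mitosis-only cells. Rb1 had 25 CPM in low-cycle cells and 21.5 CPM in the others, 1.16-fold higher (1.03 to 1.32), and Cdkn3, a phosphatase whose transcript is made in G2 and mitosis, 12.8 CPM in low-cycle cells and 28.3 CPM in the others.

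The 3 genes given as markers were all higher. Ddit4 encodes REDD1, an inhibitor of mTORC1 signalling, and had 103 CPM in low-cycle cells and 56.9 CPM in the others, 1.81-fold higher (1.69 to 1.93). Sesn3, a sestrin that also restrains mTORC1, had 83.8 CPM in low-cycle cells and 55.6 CPM in the others, 1.51-fold higher (1.40 to 1.61). Uchl1, a deubiquitinase found in gonocytes and spermatogonia, had 284 CPM (275 to 293) in low-cycle cells and 219 CPM (214 to 223) in the others, 1.30-fold higher. In counts thinned to 5000 UMIs per cell, a UMI of Ddit4 was in 40.3% of low-cycle cells (36.6 to 44.1) and 22.8% of the others (20.9 to 24.7), one of Sesn3 in 34.9% of low-cycle cells and 25.4% of the others, and one of Uchl1 in 72.0% of low-cycle cells and 58.4% of the others. In 24 barcodes of that library marked by Sertoli transcripts, with a median of 10760 UMIs against 19526 in low-cycle cells and 22730 in the others, the shares were 20.8% (7.13 to 42.2), 16.7% (4.74 to 37.4) and 16.7% (4.74 to 37.4). For Uchl1 both germ cell shares lie above the interval of these barcodes, while for Ddit4 and Sesn3 both lie within their wide interval. Whether the Sertoli-marked barcodes made these transcripts themselves was not tested, so their shares are not a detection floor. Without thinning, the shares in low-cycle cells and in the others were 83.9% and 65.1% for Ddit4, 77.9% and 69.6% for Sesn3, and 95.7% and 91.5% for Uchl1. At matched depth range the log2 ratios of the CPM were 0.71 for Ddit4, 0.48 for Sesn3 and 0.40 for Uchl1.

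Of the other genes that restrain growth, 3 of 14 tested were higher and none lower, with a median log2 ratio of 0.06. Pik3ip1, an inhibitor of PI3 kinase, had 13.7 CPM in low-cycle cells and 9.09 CPM in the others, 1.51-fold higher (1.27 to 1.79), and Tsc1, the partner of the mTORC1 brake Tsc2, 60.1 CPM in low-cycle cells and 44.5 CPM in the others, 1.35-fold higher (1.24 to 1.46). Eif4ebp1, a repressor of cap-dependent translation, had 218 CPM in low-cycle cells and 270.0 CPM in the others. The list's median lay near that of all genes, -0.02.

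Male germline genes held the highest ratio of any gene described here. Nanos2, the RNA-binding protein that keeps fetal male germ cells on the male path, had 53 CPM in low-cycle cells and 17.1 CPM in the others, 3.09-fold higher (2.79 to 3.43). Its levels were 25.7 CPM in histone-only, 16.6 CPM in mitosis-only and 11 CPM in both-high cells, and at E12.5 it was near the floor, at 0.399 CPM in members and 0.329 CPM in the others. A Nanos2 UMI was in 22% of thinned low-cycle cells (18.9 to 25.3), in 8.36% of the others (7.14 to 9.70) and in none of the 24 Sertoli-marked barcodes, with an exact upper limit of 14.2%; unthinned, it was in 55.7% of low-cycle cells and 26.9% of the others. Of 13 male germline genes tested 6 were higher and 3 lower, with a median log2 ratio of 0.29. Transposon-silencing genes of the piRNA pathway were among the higher ones: Piwil2 had 39.2 CPM in low-cycle cells and 26.2 CPM in the others and Tdrd5 132 CPM in low-cycle cells and 92.4 CPM in the others. Nanos3, a relative of Nanos2 that protects germ cells from death, had 81.0 CPM in low-cycle cells and 48.5 CPM in the others, 1.67-fold higher (1.55 to 1.79), and the zinc finger gene Bnc2 67.1 CPM in low-cycle cells and 49.3 CPM in the others. Among the lower ones were inhibitors of Nodal, a signal active for a short time in fetal male germ cells: Lefty1 had 68.1 CPM in low-cycle cells and 179 CPM in the others, 2.63-fold lower (2.46 to 2.82), and Lefty2 had 56.8 CPM in low-cycle cells and 108 CPM in the others.

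Among 15 genes picked earlier for being higher at E13.5 than at E12.5 in these same libraries, 7 were higher in low-cycle cells and none lower, with a median log2 ratio of 0.27; having been chosen on these cells, they are not independent evidence of a direction. Taf7l, a germ cell relative of a TFIID subunit, had 21.1 CPM in low-cycle cells and 8.79 CPM in the others, 2.40-fold higher (2.06 to 2.80). Stk31, a Tudor-domain kinase, had 276 CPM in low-cycle cells and 199.8 CPM in the others, and Ptgr1, a prostaglandin reductase, 89.2 CPM in low-cycle cells and 55.8 CPM in the others. Pmaip1, which encodes the BH3-only death factor Noxa, had 44.5 CPM in low-cycle cells and 43.4 CPM in the others, with an interval that includes no difference (0.936 to 1.12). Bik, another BH3-only gene, had 16.2 CPM in low-cycle cells and 9.85 CPM in the others, while Bax had 532 CPM in low-cycle cells and 577 CPM in the others and Trp53 110.3 CPM in low-cycle cells and 176 CPM in the others, 1.6-fold lower (1.51 to 1.69). Of 9 pro-apoptotic genes 1 was higher and 3 lower, and of 9 genes of the p53 list none was higher and 1, Trp53 itself, lower. Over all tested genes 9.89% were higher and 14.3% lower, and the p53 counts lay near these shares.

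The remaining genes with the highest ratios at 50 CPM or more are of mixed function. Ogt, the enzyme that adds O-GlcNAc to proteins, had 120.2 CPM in low-cycle cells and 72.1 CPM in the others, 1.67-fold higher (1.57 to 1.77), and Sox4, a transcription factor, 213 CPM in low-cycle cells and 140.1 CPM in the others. Pdcd4, an inhibitor of translation initiation, had 149.6 CPM in low-cycle cells and 103 CPM in the others. Scand1 (76.8 CPM in low-cycle cells and 49.0 CPM in the others), C1ql1 (78.1 CPM in low-cycle cells and 50.9 CPM in the others), Ankrd12 (89.2 CPM in low-cycle cells and 58.9 CPM in the others), the proton pump subunit Atp6v1b2 (100.1 CPM in low-cycle cells and 68.2 CPM in the others) and the ubiquitin-conjugating enzyme Ube2h (68.5 CPM in low-cycle cells and 46.8 CPM in the others) made up the rest. All 8 were higher in low-cycle cells than in each of the 3 other sets.

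Early germ cell genes were lower more often than higher. Of 16 tested, 10 were lower and 1, Nanos3, higher, with a median log2 ratio of -0.49. Rhox6 and Rhox9, homeobox genes on the X chromosome, had 14.3 CPM in low-cycle cells against 36.5 CPM in the others, and 23.6 CPM in low-cycle cells against 59.4 CPM in the others, 2.51-fold lower (2.24 to 2.82). Kit, the receptor for stem cell factor, had 12.9 CPM in low-cycle cells and 20.2 CPM in the others. The 4 genes of the germ cell gate were within 0.32 of 0 on the log2 scale: Pou5f1 had 726 CPM in low-cycle cells and 691 CPM in the others, Dppa3 3312 CPM in low-cycle cells and 2909 CPM in the others, Dazl 1082 CPM in low-cycle cells and 1198 CPM in the others, and Dppa5a 1713 CPM in low-cycle cells and 2075 CPM in the others. Ddx4, the germ cell helicase, had 172 CPM in low-cycle cells and 139.9 CPM in the others. Among pluripotency genes 1 of 16 was higher and 5 lower, with L1td1, an RNA-binding protein of pluripotent cells, at 33.2 CPM in low-cycle cells and 79.7 CPM in the others and Lin28a at 29.4 CPM in low-cycle cells and 21.9 CPM in the others.

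No meiotic gene was counted higher. Of 10 tested 4 were lower, with a median log2 ratio of -0.07, beside 9.89% of all tested genes higher and 14.3% lower. Hormad2 (log2 ratio 0.30), Sycp3 (0.28) and Zglp1 (0.26) lay just under the size counted as higher. The cohesin subunit Smc1b had 192 CPM in low-cycle cells and 309 CPM in the others, and Sycp1, part of the synaptonemal complex, 192 CPM in low-cycle cells and 182 CPM in the others, a difference whose sign turned under 3 alternatives given in the closing section. For Sycp1 the histone-only cells had 131 CPM and the mitosis-only cells 209.8 CPM, so the low-cycle cells lay between these sets. Hormad1, a meiotic chromosome axis protein counted on the list of postmigratory germ genes, had 23.1 CPM in low-cycle cells and 55.2 CPM in the others.

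Chromatin lists were mixed or lower. Of 6 DNA methylation genes 4 were lower, with a list median of -0.47 that turned to 0.11 when genes under 10 CPM were added. The lower ones include Dnmt1, the maintenance methyltransferase, at 80.9 CPM in low-cycle cells and 127 CPM in the others, and Uhrf1, its recruiter, at 17.1 CPM in low-cycle cells and 28.5 CPM in the others. Of 18 chromatin repressor genes 5 were lower, 1 higher and 12 between, with a median of -0.12, beside 14.3% of all tested genes lower and 9.89% higher. Ezh2, the Polycomb methyltransferase, had 67.2 CPM in low-cycle cells and 154 CPM in the others, 2.29-fold lower (2.14 to 2.45), and its relative Ezh1 had 26.4 CPM in low-cycle cells and 20.5 CPM in the others, 1.29-fold higher (1.14 to 1.45). Of 9 variant histone genes 5 were lower and none higher, with a median of -0.35. H2afx, a histone variant phosphorylated at DNA breaks, had 68.9 CPM in low-cycle cells and 167 CPM in the others, and of the genes for the replication-independent histone H3.3, H3f3a had 619 CPM in low-cycle cells and 705 CPM in the others and H3f3b 1552 CPM in low-cycle cells and 1977 CPM in the others.

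Housekeeping lists were nearly level. None of 28 nuclear genes of oxidative phosphorylation was higher or lower by this measure (median log2 ratio 0.00), 1 of 20 proteasome genes was lower (median -0.09), and so was 1 of 11 glycolysis genes (median -0.03). Of 18 ribosome biogenesis genes 3 were lower, beside 14.3% of all tested genes. Of 16 genes on the cholesterol list 7 were lower and none higher.

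**Figure D3:**
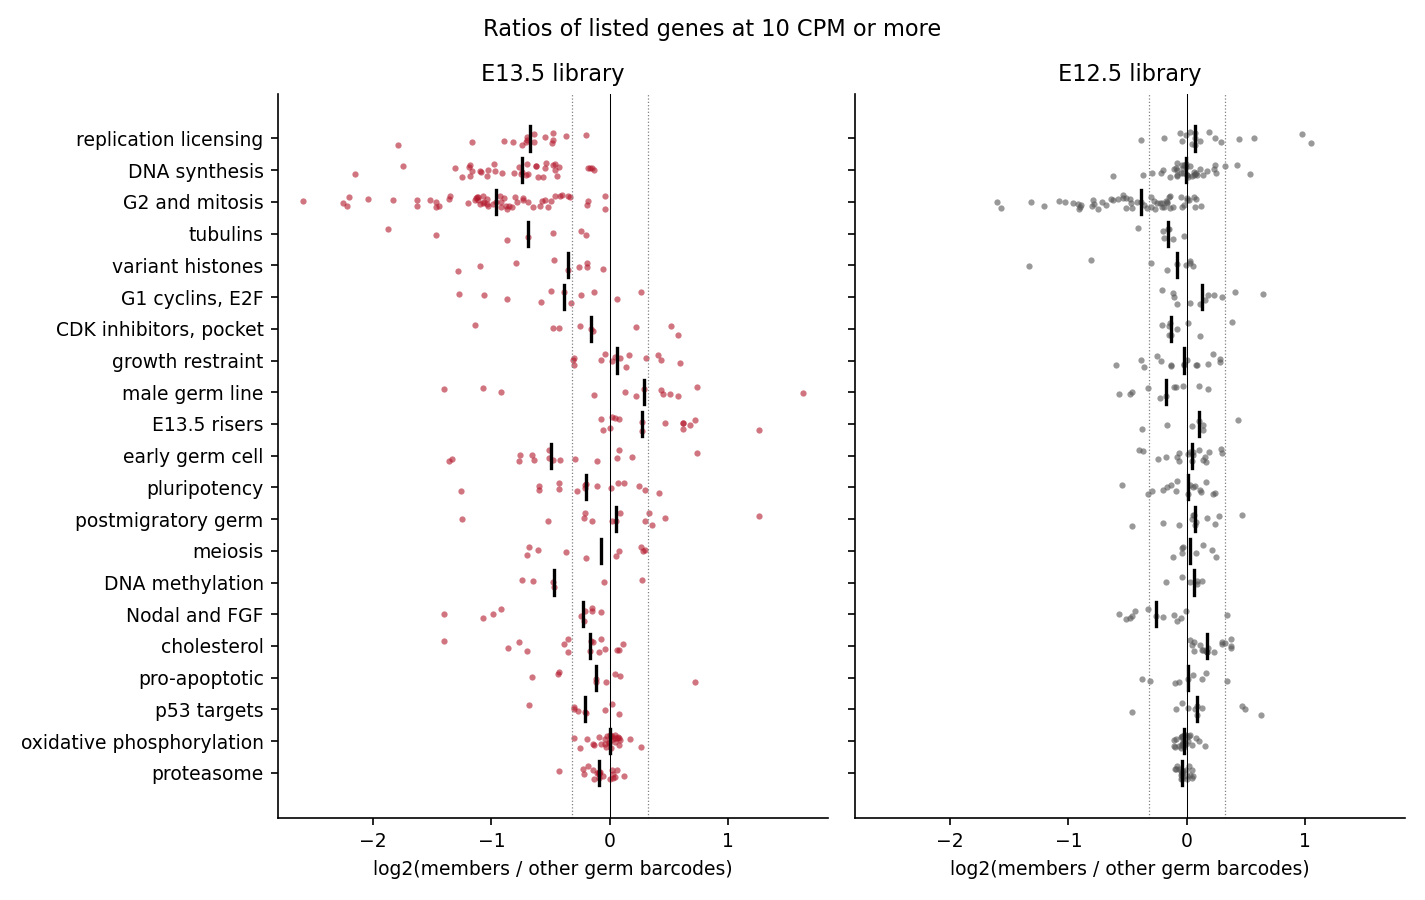
Each point is a gene of the list named at left, placed at the log2 ratio of its CPM in members over the other germ cells, at E13.5 (left panel) and E12.5 (right panel); black bars are medians and dotted lines mark the size at which genes were counted as higher or lower. At E13.5 the medians of licensing (-0.67), DNA synthesis (-0.74) and G2 and mitosis (-0.96) lie far left, while at E12.5 only the last of these (-0.39) does.

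The same rule, with that library's own medians of 2.71 and 13.3, was applied to E12.5 to see what low counts of these 11 genes go with at the earlier stage. It held 243 of 2494 germ cells, 9.74% (8.61 to 11), beside 26.8% at E13.5. Each library's own medians were the cuts, so this share depends on how the 2 sums go together across cells. At E12.5, 1004 germ cells were over the histone cut alone and 1004 over the mitosis cut alone. The 2 shares therefore do not measure how common low-cycle cells were at each stage. Under the E13.5 cuts, 42 E12.5 germ cells were members, 1.68% (1.22 to 2.27). At E12.5, 251 of the 6870 genes tested there (3.65%) were higher in members and 449 (6.54%) lower. Of 18 licensing genes 4 were higher and 1 lower in E12.5 members (median log2 ratio 0.07), against 0 and 15 of 16 at E13.5 (median -0.67); for DNA synthesis the counts were 2 and 2 of 38 at E12.5, and for G2 and mitosis 0 and 31 of 57. The cuts differ, a library stands for each stage, and Sertoli markers summed to 44.8 CPM in E12.5 members and 11.9 CPM in the others, with 1 member at 0.5% or more, so stage and library cannot be told apart.

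Levels per cell show the same difference between the libraries without a ratio. Low-cycle cells at E13.5 had a median of 7.91 licensing UMIs per 10000 (5th to 95th percentile 4.0 to 19.1), and members at E12.5 had 20.9 (10.7 to 28.3); the other germ cells had 13.4 at E13.5 and 19.8 at E12.5. The 42 E12.5 cells under the E13.5 cuts had a median of 19.9, also above the E13.5 members. Of the 682 low-cycle cells, 510 (74.8%) lay below the 5th percentile of E12.5 members, and 24 reached the median of E12.5 members. For DNA synthesis the medians were 28.1 in low-cycle cells at E13.5 and 60.4 in E12.5 members, and for G2 and mitosis they were 44.8 in low-cycle cells at E13.5 and 77.5 in E12.5 members. Low histone and mitotic counts thus went with near-average licensing levels at E12.5 and with low licensing levels at E13.5.

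**Figure D4:**
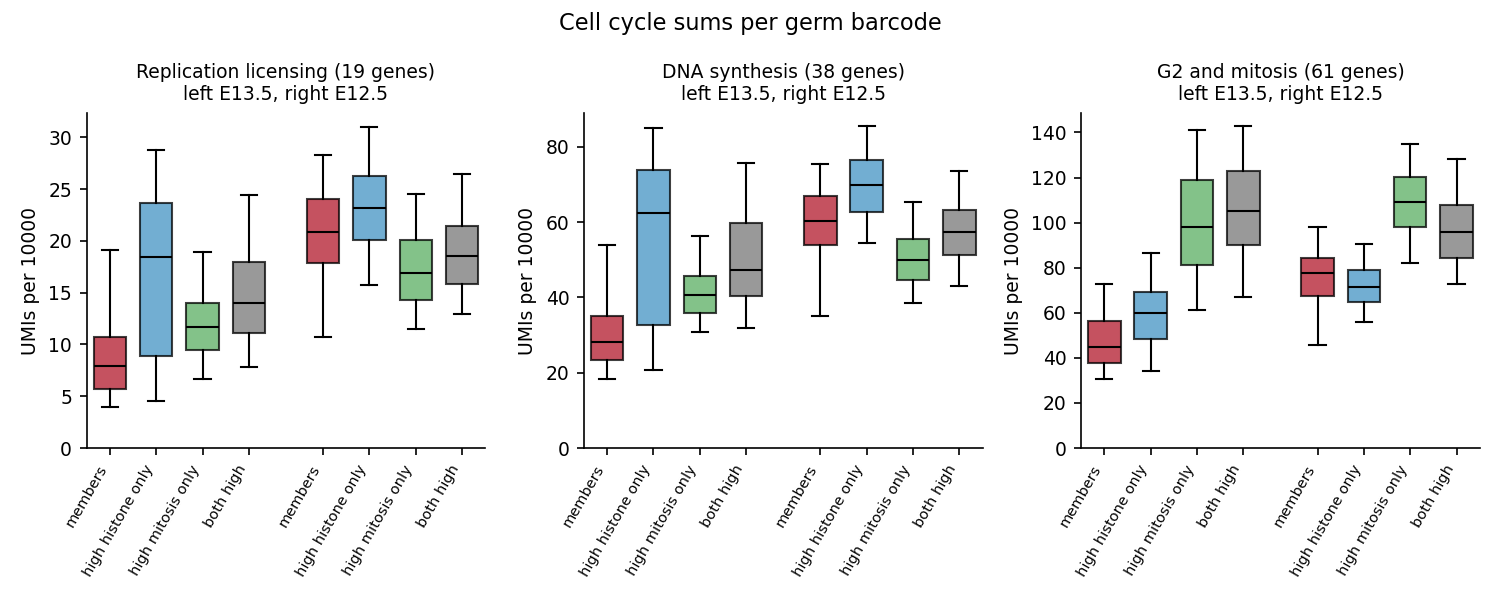
Boxes give the median and quartiles, and whiskers the 5th to 95th percentiles, of summed UMIs per 10000 per germ cell for 3 gene lists that the rule did not use, in 4 sets at E13.5 (left 4 boxes) and E12.5 (right 4 boxes). The licensing median of members is 7.91 at E13.5 and 20.9 at E12.5.

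Of 6396 genes tested in both libraries, 144 were lower in members of both and 47 higher in both. Another 24 were lower at E13.5 and higher at E12.5, and 11 the reverse. The same 11 genes chose the members in each library, so genes that go with them can share a direction through that choice. At E13.5, 979 of all tested genes (14.3%) were lower and 675 (9.89%) higher, and at E12.5 449 (6.54%) were lower and 251 (3.65%) higher. With so few counted at E12.5, most of the E13.5 genes could not have been counted there in the same direction. The overlap is therefore no measure of how alike the libraries were. Rhox9 had 23.6 CPM in low-cycle cells at E13.5 and 544 CPM in E12.5 members, where the others had 531 CPM. The 3 name markers were at higher levels in members than in the others at E12.5 too, where licensing was not low. Ddit4 had 42.8 CPM in E12.5 members and 29.2 CPM in the others, 1.46-fold higher (1.26 to 1.69), Uchl1 had 41.2 CPM in E12.5 members and 34.4 CPM in the others, 1.20-fold higher (1.03 to 1.39), and Sesn3 had 27.7 CPM in E12.5 members and 23.1 CPM in the others, with an interval that includes no difference (0.999 to 1.43).

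Within the 682 low-cycle cells, quartiles by the sum of the licensing and DNA synthesis genes differed in the levels of several genes. These genes did not sort by list: Nanos3 is on both the male germline and the early germ cell list, and Lefty1 is on the male germline list. The sum was not in the rule but comes from the same cells, so the quartiles are a description. Nanos2 had 76.1, 66.8, 46.9 and 22.6 CPM from the lowest to the highest quartile, and Nanos3 122, 93.3, 63.6 and 45.3 CPM. Ptgr1 and Sycp1 ran the same way, with 128 and 233 CPM in the lowest quartile and 52.7 and 118 CPM in the highest. Cdkn1b had 17.3 CPM (13.3 to 22.2) in the lowest quartile and 5.24 CPM (3.16 to 8.19) in the highest. In the other direction, Rhox9 had 7.27 CPM (4.75 to 10.7) in the lowest quartile and 66.0 CPM (57.9 to 74.9) in the highest, L1td1 10.6, 19.7, 38.3 and 63.7 CPM, and Lefty1 33.3, 40.0, 89.8 and 109 CPM. For Rhox9 and Ccne1 the highest quartile alone stood apart; for Nanos2 the lowest pair of quartiles overlapped within counting error and each further one was lower.

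The markers in the name followed this split less closely. Uchl1 had 307, 326, 289 and 216 CPM, so only the highest quartile lay below the others beyond counting error, and Ddit4 had 100.4, 111, 110.5 and 89.4 CPM with overlapping intervals in the lowest (90.3 to 111) and highest quartile (79.9 to 99.7). Sesn3 had 83.4, 76.4, 105 and 70.9 CPM, with no order. Median depth was 19491, 19481, 19420 and 19960 UMIs in these quartiles.

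Splits of the low-cycle cells by depth, by the mitotic sum of the rule or by histone UMIs separated these genes far less. By depth Nanos2 lay between 50.1 and 56.5 CPM and Rhox9 between 17.8 and 27.8 CPM. By the mitotic sum Nanos2 lay between 42.1 and 61.6 CPM and Ddit4 between 95.1 and 107 CPM, while Rhox9 had 16.7, 19.7, 23.9 and 34.1 CPM from low to high. Cells with 0 histone UMIs had 52.0 CPM of Nanos2 and 10.5 CPM of Ccne1, and cells with 1 or more had 54.0 and 10.6 CPM.

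**Figure D5:**
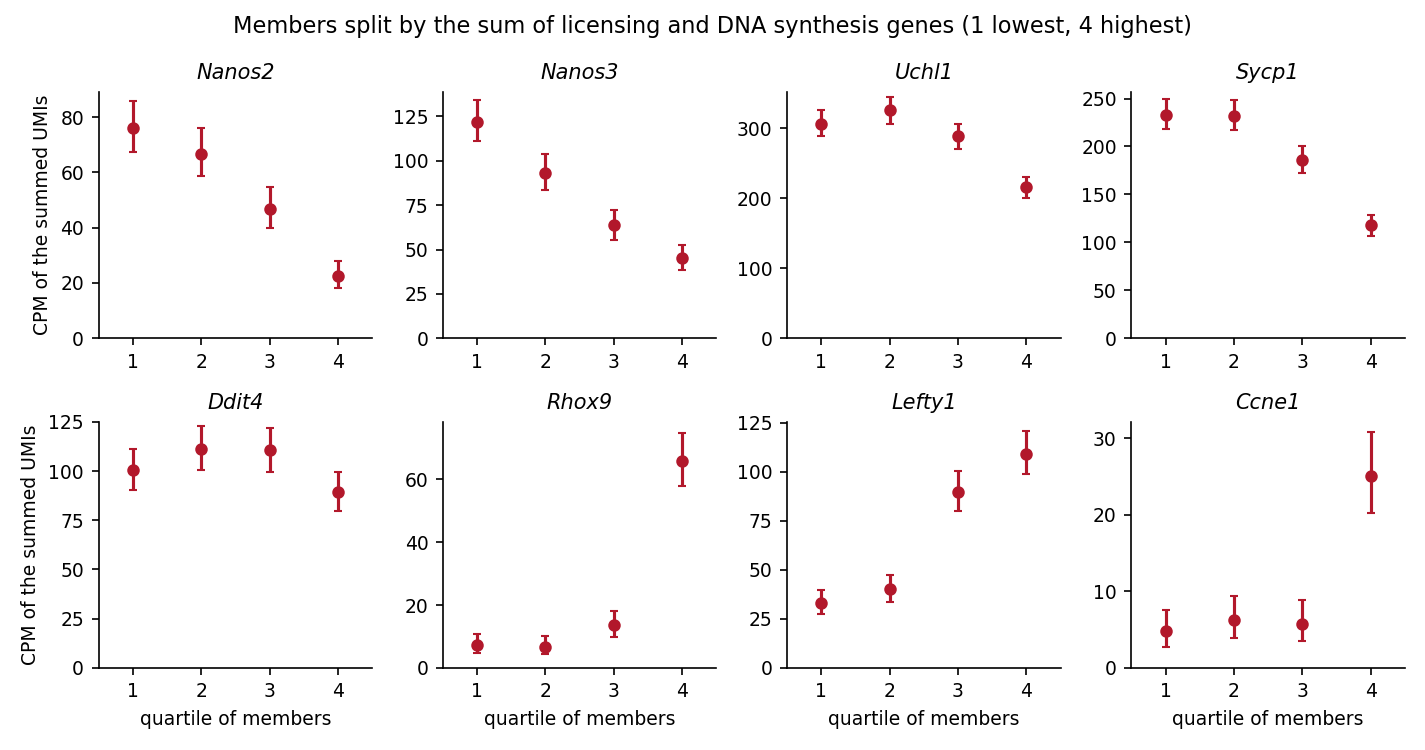
Points give CPM of the summed UMIs in the 4 quartiles (171, 170, 170 and 171 cells) of the low-cycle cells by their licensing and DNA synthesis sum, with exact 95% Poisson intervals. Nanos2 goes from 76.1 CPM in the lowest quartile to 22.6 CPM in the highest, and Rhox9 has 66.0 CPM in the highest and 7.27 CPM in the lowest.

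Over the thinned low-cycle cells, the genes whose counts went most with Uchl1 were Rhox1, Pabpc1, Rps7, D10Wsu102e and Eef1a1, with Spearman correlations across 682 cells of 0.161, 0.151, 0.149, 0.148 and 0.143, against a median of -0.004 over all genes compared. The cells share 1 library and a fixed depth, and values this weak in sparse counts are given as a description and not as a finding.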

How the data were processed

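Raw UMI counts per gene and barcode were deposited by the authors, 1 table per stage, from 10x v2 libraries per the labels' protocols. Per the submitters' processing notes, the tools included Cell Ranger, with no version stated, and the genome was mm10, that is GRCm38. The tables held 59842242 UMIs at E13.5 and 60383440 at E12.5. At E13.5, 231 barcodes had under 500 genes, 91 more had 10% or more mitochondrial UMIs, 89 more had under 5000 UMIs and 32 more failed the germ marker gate. UMIs were summed per set, ratios were given exact conditional binomial intervals, levels exact Poisson and shares exact Clopper-Pearson intervals at 95%; the ratio code was tested on simulated data. Doublets were left in, and Scrublet in scanpy 1.11.5 was run as an alternative. Ratios were computed in Python 3.11.15, and scaling alternatives used edgeR 4.0.16 and DESeq2 1.42.0 factors in R 4.3.3. Ratios need 3 UMIs in each set.

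Genes named are the 12 highest and 12 lowest ratios at 50 CPM or more, up to 2 genes at each end of every list with its most abundant gene, and a fixed set of markers. Bnc2, Cdc6, Cdt1, Dtl, E2f1, Kit, Lefty2, Mcm4, Mcm5, Mcm7, Piwil2, Slbp, Tdrd5, Tyms and the promoters shown were chosen after their values were seen. Members and lists were chosen with earlier results of these data known.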

Additional observations from a re-analysis of the deposited data

Results flagged for a closer look

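For 3 genes of the entry into S phase, the ratio of members over the other germ cells had opposite signs in the 2 libraries, with every counting interval on its own side of no difference; whether the libraries differ was not tested. Cdc25a had a log2 ratio of -1.27 at E13.5 and 0.41 at E12.5. Dtl, part of a ubiquitin ligase that degrades Cdt1 in S phase, had -0.54 at E13.5 and 0.59 at E12.5, and Mcm4 -0.70 at E13.5 and 0.44 at E12.5. These 3 were not the only such genes. Of the genes tested in both libraries, 24 were counted lower at E13.5 and higher at E12.5. Orc1 of the licensing list, for one, had -0.71 at E13.5 and 0.57 at E12.5.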

How the results depend on the processing

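List medians here are log2 ratios of low-cycle cells over the other germ cells. Moving the cuts to the 25th percentile left 214 low-cycle cells. These were compared with the 1867 other germ cells of the main rule, and the remaining members were left out. The list medians were then -0.83 for licensing and -0.89 for DNA synthesis. Keeping cells under 5% mitochondrial UMIs left 393 low-cycle cells, with -0.59 for DNA synthesis. After thinning to 5000 UMIs the histone median was 0, so no cell could lie under it. The thinned rule instead took cells with 0 histone UMIs that lay under the thinned mitosis median. It held 707 cells, 529 of them members of the main rule, with a DNA synthesis median of -0.62. The G2 and mitosis median was -0.79 within the members' interquartile depth. Genes higher and lower numbered 3453 and 2419 with no minimum level, 81 and 378 at 50 CPM or more, and 135 and 348 at 1.5-fold; 1027 were higher with abundant genes left out of the denominator. Without the barcode sequences found in both tables, also chosen after seeing the data, 677 low-cycle cells remained, with 684 genes higher and 991 lower. The male germline median ranged from 0.19 to 0.40 over its alternatives.

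Among genes whose counting interval excluded no difference, and lists whose median interval bounds did, signs reversed for 8 genes and 1 list; other values near 0, such as Pmaip1 (-0.15 to 0.12), G2e3 (-0.23 to 0.13) and the meiosis median (-0.37 to 0.04), also took both signs. The DNA methylation list had 0.11 with no minimum level. Under 5% mitochondrial UMIs, Birc2 had -0.00, Hspa5 0.04 and Sycp1 -0.05. Sycp1 also had -0.05 at the 25th percentile and -0.00 with the thinned rule. With abundant genes left out of the denominator, Gapdh had 0.03 and H2afy 0.02. In the matched depth range H2afy had 0.04, Xbp1 -0.01 and Hbb-bs 0.19. Without cells rich in somatic transcripts Hbb-bs had 0.01 and Hbb-y 0.02, and Hbb-y had 0.02 without other germ cells near the histone cut, an alternative chosen after seeing the data. Of 2685 comparisons over 192 genes, 2276 moved less than their counting interval, 396 moved more and 13 reversed; the cause was not tested. Scrublet called 27 of 2670 barcodes, 2 of them low-cycle cells. No paired analysis was possible because each stage is 1 library and no test was made. With a histone cut at 1 to 2 UMIs per cell, membership near the cut is limited by depth.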
